A study of Saccharomyces cerevisiae with 16 samples.

Results

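The genes described here are 10 budding yeast genes of the mating pheromone response, chosen by name for their place in that response: FUS1, FUS3, STE2, MFA1, MFA2, BAR1, FAR1, AGA1, AGA2 and GPA1. All 10 were among the 4073 genes that could be named on the arrays, each from 2 spots. The study compared yeast of the W303 background, wild type or esa1-L254P::NatRMX4, on 16 two-colour arrays. ESA1 encodes the catalytic subunit of the NuA4 histone acetyltransferase, and the mutant strain carries a point allele of it marked with a drug resistance cassette. G1 cells had been held with alpha factor for 1 h and then spent 1 h in 0.05% methyl methanesulfonate (MMS), an alkylating agent, or untreated. S cells had been held with alpha factor for 2 h, washed, and let go for 1 h into medium that did or did not hold 0.05% MMS. Every RNA on every array thus came from cells that had been given alpha factor.

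Each of the 8 comparisons had 2 arrays with the dyes exchanged. MMS was set against no treatment in each strain and phase, and esa1-L254P was set against wild type in each phase and treatment. In replicate 1 the test RNA (the MMS-treated or the esa1-L254P RNA) carried Cy5, and in replicate 2 it carried Cy3, so replicate number and dye orientation cannot be told apart. The labels do not say whether the arrays of a pair came from separate cultures, so the p-values measure the spread between these arrays, which may be technical. All values are log2 ratios, with positive values for more in MMS or in esa1-L254P. They hold no level, so a gene cannot be called strongly or weakly expressed from them, and fewer cells with a transcript and less of it per cell cannot be told apart. The a mating type of the cells, whose markers STE2, MFA1, MFA2, BAR1 and AGA2 are among the 10 genes, could likewise not be checked from a level. A single array had no replicate, and means are given with the standard error (±) of the fit and n = 2 arrays.

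In a cells of budding yeast, alpha factor from the other mating type binds the receptor Ste2. The receptor acts on a trimeric G protein whose alpha subunit is Gpa1, and the freed beta and gamma subunits start a kinase cascade that ends in the MAP kinase Fus3 and its relative Kss1. These kinases relieve the transcription factor Ste12 of its inhibitors Dig1 and Dig2. Fus3 also acts on Far1, which holds the cells in G1. Many genes of the pathway are themselves targets of Ste12, which makes their transcripts common readouts of pheromone signalling.

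Facts of the whole series that bear on these genes are few. The order of spots in the value table had to be found from the agreement of duplicate spots, which correlated at 0.699 to 0.947 over 2036 genes that took no part in the search. Both spots of each of the 10 genes correlated over the 16 arrays, from 0.76 for GPA1 to 0.99 for AGA2. The direction of the ratio rests on the assumption of Cy5 over Cy3. With it the damage-induced gene RNR3 rose with MMS in wild-type S cells by 1.24 (adjusted p = 9.43e-06, limma). RNR3 was named after its value was seen, so its rise is no independent check of the direction. With the opposite assumption every sign below turns. ESA1 itself, whose transcript does not check a point allele, read higher for the mutant in untreated G1 cells (0.66 ± 0.07, adjusted p = 0.000654), but not in untreated S cells (0.11 ± 0.07, adjusted p = 0.337). With MMS the difference did not pass in G1 (0.24 ± 0.07, adjusted p = 0.0634) or in S (0.34 ± 0.07, adjusted p = 0.155). Of 4 alpha-specific genes, which a cells keep silent, 2 rose and 1 fell with MMS in wild-type G1: STE3 (0.53 ± 0.13), MF(ALPHA)2 (0.38 ± 0.13) and SAG1 (-1.07 ± 0.07). Of all genes 18.1% rose and 17.9% fell there. With MMS MF(ALPHA)2 also rose in esa1-L254P G1 (1.09 ± 0.13, where 13.3% of all genes rose). SAG1 rose in wild-type S (0.45 ± 0.07, where 19.1% rose), and 0 of the 4 passed in esa1-L254P S (33.1%). Between the strains SAG1 was lower in the mutant in untreated G1 (-0.64 ± 0.07, where 9.31% were lower). It was higher in untreated S (0.35 ± 0.07, where 9.23% were higher). MF(ALPHA)2 was higher in G1 with MMS (0.55 ± 0.13, where 4.54% were higher), and 0 passed in S with MMS (0.123%). The part of these 4 genes in the results below was not tested.

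In the fit without a term for the replicate number, only FAR1 of the 10 mating genes passed the test in any of the 8 comparisons. With that term FUS3 and MFA1 passed as well, as did more of all genes, and those calls are given further below. The counts that follow here are from the fit without it. Each comparison was tested with limma over all 4073 genes, at a Benjamini-Hochberg adjusted p of 0.05. FAR1 fell with MMS in S cells of both strains. In the wild-type S comparison this was 1 of 10 genes, against 38.3% of all genes that passed. In the esa1-L254P S comparison it was 1 of 10, against 33.1%. None of the 10 passed with MMS in G1, where 36.0% of all genes passed in wild type and 27.2% in esa1-L254P. Between the strains none of the 10 passed in untreated G1 cells (21.4% of all genes), in G1 cells with MMS (9.80%), in untreated S cells (20.8%) or in S cells with MMS (0.123%). At an unadjusted p under 0.05 FUS3 and FAR1 passed with MMS in wild-type G1, and FAR1 passed between the strains in G1 with MMS. The shares of all genes at that threshold are not given here, but cannot be below the 36.0% and 9.80% that passed the adjusted test there. The medians over the 10 genes ranged from -0.23 with MMS in wild-type G1 to 0.29 between the strains in G1 with MMS, beside medians over all genes of -0.01 and 0.01.

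The arrays of a pair often fell on opposite sides of 0 for these genes, and mostly in G1. Over 40 pairs of arrays in G1, 10 lay on the same side, while the share over all genes was 68.1%. Over 40 pairs in S, 22 did, against 64.6%. Between the strains with MMS whole arrays disagreed too: 53.5% of all genes in G1 and 36.7% in S lay on the same side. With replicate 2 turned in sign, those arrays correlated over all genes at -0.21 in G1 and -0.61 in S. Few calls there thus do not show that the strains were alike. These arrays also enter the strain differences of the MMS response given below. With MMS in wild-type S cells 9 of the 10 genes had both arrays on one side (82.0% of all genes), and in untreated G1 cells of the 2 strains 1 had (68.6%). BAR1 had both arrays on one side in 0 of 8 comparisons and FUS3 in 6.

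**Figure D1:**
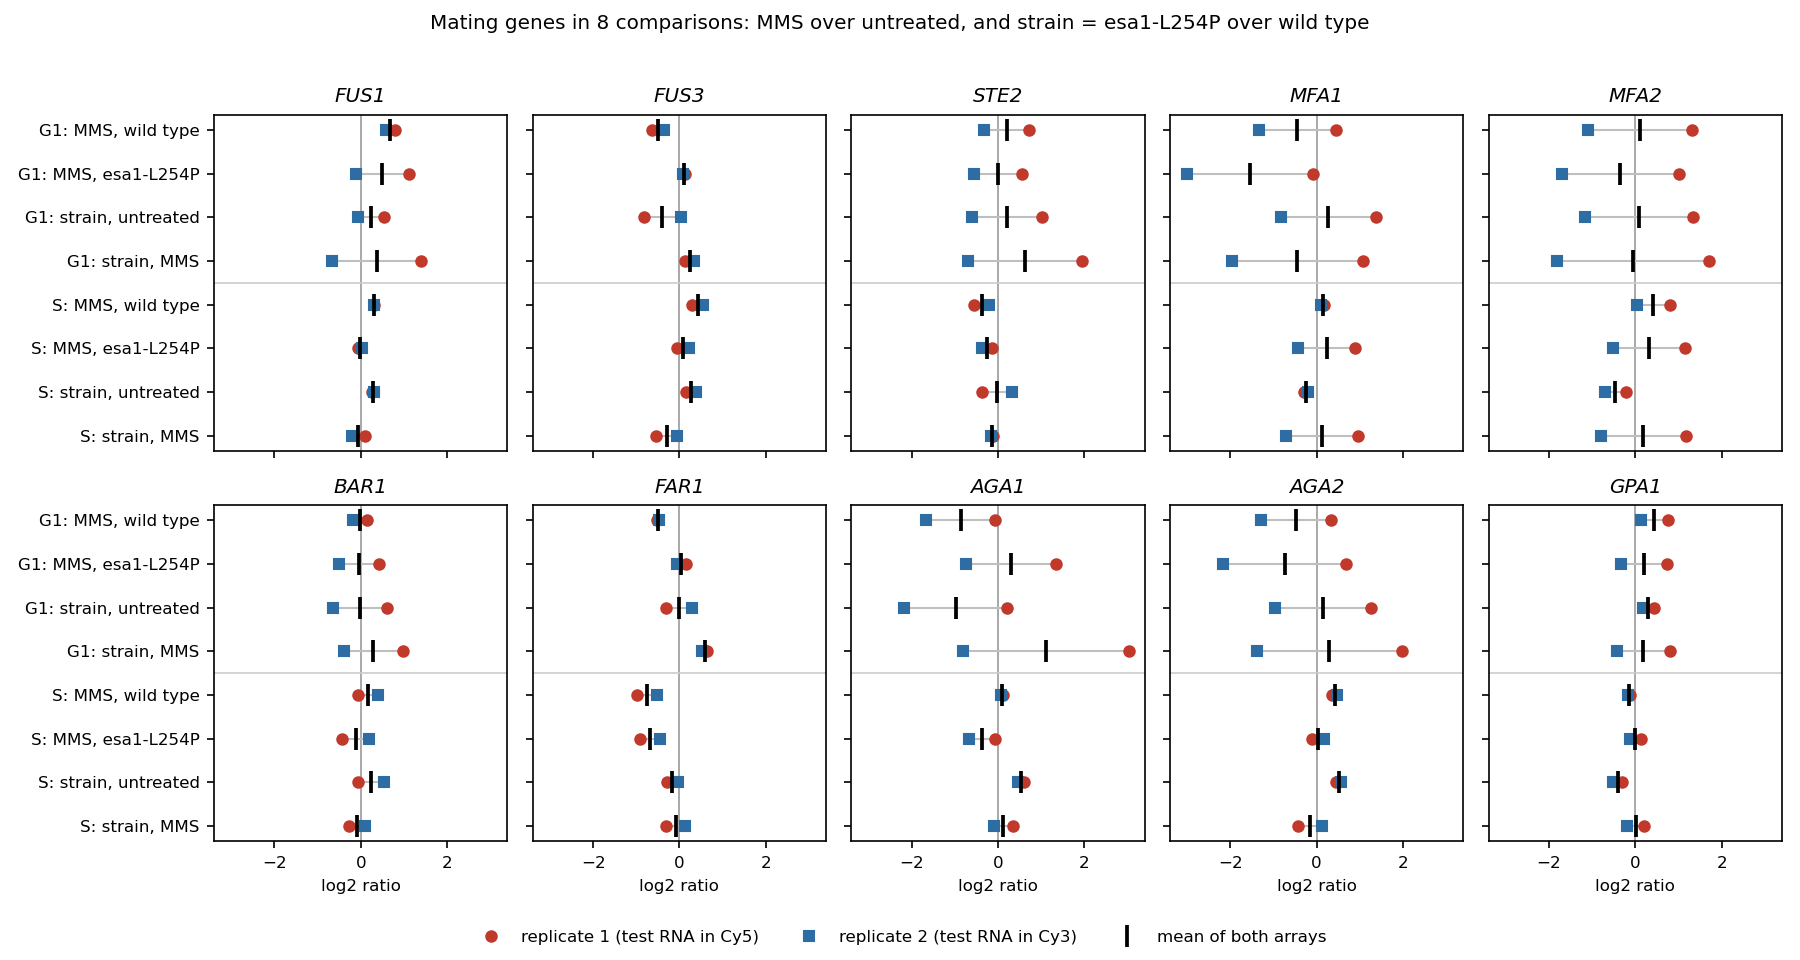
The 10 mating genes in the 8 comparisons, one panel a gene. The horizontal axis is the log2 ratio of MMS over untreated or of esa1-L254P over wild type, red circles are replicate 1, blue squares replicate 2, black bars the mean of both, and the upper 4 rows are G1 and the lower 4 are S. The widest pair is that of AGA1 between the strains in G1 with MMS, at 3.04 and -0.81, and all 4 G1 pairs of MFA2 lie on opposite sides of 0.

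FAR1 encodes the inhibitor that carries the pheromone signal to the cell cycle. In wild-type S cells FAR1 read -0.98 and -0.52 on the 2 arrays of MMS over untreated. In esa1-L254P S cells it read -0.91 and -0.45. All 4 arrays lay below 0. FAR1 thus fell by 0.75 ± 0.18 on the log2 scale in wild type (95% interval -1.14 to -0.35, adjusted p = 0.00809, limma), a 1.68-fold lower ratio. In esa1-L254P it fell by 0.68 ± 0.18 (95% interval -1.07 to -0.29, adjusted p = 0.0149), or 1.60-fold. The strains' responses in S did not differ detectably (0.08, 95% interval -0.32 to 0.47, adjusted p = 0.797). Both calls ended without replicate 1 of their comparison, at -0.52 (adjusted p = 0.174) in wild type and -0.45 (adjusted p = 0.222) in esa1-L254P, and also with arrays scaled to one spread (adjusted p = 0.0515 and 0.0651).

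FAR1 is known to peak in transcription in G2/M and early G1, so genes of that time are given beside it. In wild-type S cells all 19 measured genes of the CLB2 cluster, which are transcribed in G2 and mitosis, fell with MMS, with a median of -1.64, while 19.2% of all genes fell and 19.1% rose. In esa1-L254P S cells 18 of 19 fell, with a median of -1.39, while 16.8% of all genes fell and 16.3% rose. SWI5, a transcription factor of late mitosis, read -2.53 and -3.04 in wild type and -2.51 and -2.81 in esa1-L254P. Of 20 G1/S genes 14 rose in wild type and 12 in esa1-L254P, with RFA1, a subunit of the single-strand binding factor, at 1.32 ± 0.13 and 0.89 ± 0.13. Of 18 genes of the MCM and early M/G1 list 5 fell and 2 rose in wild type, and 7 fell and 3 rose in esa1-L254P. The part of these genes' timing in the fall of FAR1 was not tested.

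In G1 cells with MMS FAR1 lay below 0 on both wild-type arrays and near 0 in esa1-L254P. Wild-type G1 arrays read -0.53 and -0.47, with a mean of -0.50 ± 0.18 that missed the threshold (adjusted p = 0.0501) and passed with the replicate as a block (adjusted p = 0.0124). In esa1-L254P the arrays read 0.15 and -0.06, with a mean of 0.04 ± 0.18 (adjusted p = 0.890). CLB2 cluster genes in wild-type G1 had a median of 0.23, with 5 higher and 2 lower. Between the strains in G1 with MMS, FAR1 read 0.65 and 0.52, with a mean of 0.58 ± 0.18 (adjusted p = 0.0674, and 0.0130 with the block). In untreated G1 cells it read -0.30 and 0.29, on opposite sides of 0. Both ways of measuring the strain difference of the MMS response, averaged, gave a higher response in esa1-L254P by 0.57 ± 0.18 (95% interval 0.17 to 0.96, adjusted p = 0.0274). This contrast passed for 2 of the 10 genes, FAR1 and FUS3, against 41.6% of all genes. For FAR1 the value ranged from 0.42 to 0.71 over 16 alternatives, and the call held in 9 of them.

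FUS3 encodes the MAP kinase of the mating pathway. In wild-type G1 cells FUS3 read -0.64 and -0.35 with MMS, and in wild-type S cells it read 0.30 and 0.55. The pairs lay on opposite sides of 0 and did not overlap, and the share of all genes with such pairs is not given here. The means were -0.49 ± 0.19 in G1 (adjusted p = 0.0695, and 0.00708 with the block) and 0.42 ± 0.19 in S (adjusted p = 0.109, and 0.0142 with the block). The difference between the phases passed in wild type, at 0.91 ± 0.27 (95% interval 0.31 to 1.51, adjusted p = 0.0269). FUS3 was the only one of the 10 genes to pass this contrast, against 32.2% of all genes, and 0 of the 10 passed it averaged over both strains (16.3%). It no longer passed when any of the 4 arrays was left out (0.77 to 1.06, adjusted p from 0.0556 to 0.151), with the last spot alone (adjusted p = 0.0883) or with arrays scaled to one spread (adjusted p = 0.133).

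In esa1-L254P the MMS response of FUS3 was small in both phases. G1 arrays read 0.14 and 0.08, and S arrays read -0.05 and 0.23. The difference between the phases was -0.02 ± 0.27 (95% interval -0.62 to 0.58, adjusted p = 0.986), a contrast that 0 of the 10 genes passed and 9.55% of all genes did. The G1 response of FUS3 was higher in the mutant, by 0.62 ± 0.19 (95% interval 0.19 to 1.04, adjusted p = 0.0260). The value ranged from 0.40 to 0.83 over 16 alternatives, and the call held in 9 of them. It ended with the last spot alone (adjusted p = 0.0972), with arrays scaled to one spread (adjusted p = 0.0609) and without any of 5 single G1 arrays. Those were replicate 1 of MMS in wild type (adjusted p = 0.0881), replicate 1 of the untreated strains (0.40, adjusted p = 0.0768), replicate 2 of the strains with MMS (adjusted p = 0.0730) and either replicate of MMS in esa1-L254P (adjusted p = 0.0642 and 0.0567). In S the difference ran the other way and missed the threshold (-0.45 ± 0.19, adjusted p = 0.128, and 0.0152 with the block), in a contrast that 0 of the 10 genes and 21.5% of all genes passed. In untreated G1 cells FUS3 read -0.82 and 0.03 between the strains, with a mean of -0.40 ± 0.19 (adjusted p = 0.176, and 0.0256 with the block). In untreated S cells the strain ratio was 0.26 ± 0.19 (adjusted p = 0.408), and its difference from G1 was 0.66 ± 0.27 (adjusted p = 0.0878, and 0.00967 with the block). The 2 spots of FUS3 lay up to 0.63 apart on one array.

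**Figure D2:**
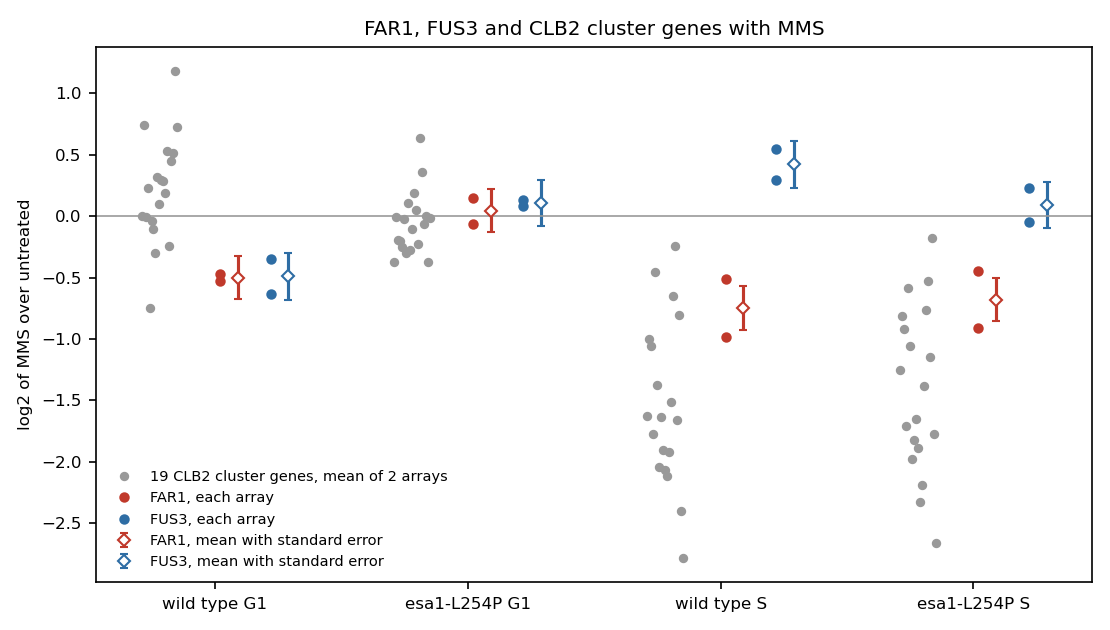
FAR1 (red), FUS3 (blue) and 19 CLB2 cluster genes (grey) with MMS in the 4 groups of cells. The vertical axis is the log2 ratio of MMS over untreated, filled points are single arrays for FAR1 and FUS3 and means of 2 arrays for the CLB2 cluster, and open diamonds with bars are means with standard errors. FAR1 lies below 0 in both S comparisons and in wild-type G1, and FUS3 is below 0 in wild-type G1 and above 0 in wild-type S.

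None of the pheromone, receptor and G protein genes passed without the block. MFA1 and MFA2 encode precursors of a-factor, the pheromone that a cells secrete. The mature peptides they encode are nearly identical, and whether probes of one gene read the other was not tested. MFA1 read -0.07 and -3.01 with MMS in esa1-L254P G1 cells. Its mean there was -1.54 ± 0.89 (adjusted p = 0.235, and 0.0306 with the block), the lowest mean of any of the 10 genes. In wild-type G1 cells MFA1 read 0.44 and -1.33, and in the 4 S comparisons its means lay between -0.24 and 0.23. For MFA2 the 2 arrays of each G1 comparison lay on opposite sides of 0, from 1.00 to 1.72 in replicate 1 and from -1.10 to -1.81 in replicate 2. The standard error of a mean was 1.01 for MFA2 and 0.89 for MFA1, against a median of 0.149 over all genes.

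STE2 encodes the alpha factor receptor, BAR1 the secreted protease that degrades alpha factor, and GPA1 the G protein alpha subunit. STE2 read 1.95 and -0.69 between the strains in G1 with MMS, its most distant pair, and the means of the 8 comparisons lay between -0.38 and 0.63. BAR1 means lay between -0.12 and 0.30, with a standard error of 0.38. GPA1 read 0.77 and 0.12 with MMS in wild-type G1 cells and -0.12 and -0.18 in wild-type S cells. The difference between the phases for GPA1 was -0.59 ± 0.42 (adjusted p = 0.337). In untreated cells the strain ratio of GPA1 was 0.42 and 0.17 in G1 and -0.32 and -0.51 in S. These pairs did not overlap, and the share of all genes with such pairs is not given here. The phase difference of this ratio for GPA1 was -0.71 ± 0.42 (adjusted p = 0.238, and 0.0498 with the block), in a contrast that 0 of the 10 genes and 33.9% of all genes passed. With MMS the strain ratio differed between the phases for 0 of the 10 genes (0.221%).

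AGA1 and AGA2 encode the anchor and the binding subunit of a-agglutinin, with which a cells stick to their partners, and FUS1 encodes a membrane protein needed for cell fusion. AGA1 held the widest pair of the 10 genes, 3.04 and -0.81 between the strains in G1 with MMS. In untreated G1 cells it read 0.21 and -2.17. The strain difference of the MMS response of AGA1 in G1 was 1.63 ± 0.85 (adjusted p = 0.152, and 0.0339 with the block). It was -0.44 ± 0.85 in S (adjusted p = 0.758). AGA2 read 0.69 and -2.16 with MMS in esa1-L254P G1 cells, while in wild-type S cells it read 0.36 and 0.48. FUS1 was above 0 on both arrays in 3 comparisons, at 0.79 and 0.59 with MMS in wild-type G1, 0.30 and 0.31 with MMS in wild-type S, and 0.26 and 0.30 between the strains in untreated S. Its means of 0.69 ± 0.40, 0.30 ± 0.40 and 0.28 ± 0.40 did not pass (adjusted p = 0.218, 0.605 and 0.705). That standard error is pooled over all comparisons of FUS1 and is not the spread of these pairs.

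Where the replicate number, and with it the dye orientation, entered the fit as a block, more of the 10 genes passed, as did more of all genes. FUS3 and FAR1 passed with MMS in wild-type G1 (2 of 10, against 56.3% of all genes) and also in wild-type S (2 of 10, against 58.3%). FUS3 passed between the strains in untreated G1 (1 of 10, against 43.7%) and FAR1 in G1 with MMS (1 of 10, against 29.5%). MFA1 passed with MMS in esa1-L254P G1 (1 of 10, against 51.3%) and FAR1 in esa1-L254P S (1 of 10, against 55.7%). Between the strains in S the block gave 0 of 10 calls in untreated cells (39.5%) and 0 of 10 with MMS (2.04%). The block changes no mean, but it lowered the standard errors of the 10 genes, as for MFA2 from 1.01 to 0.44. The replicate term itself passed for 2159 of 4073 genes (limma, adjusted p under 0.05). Among the 10 genes it passed for FUS3, MFA1, MFA2, AGA1 and GPA1.

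The arrays were also read as scanned, with Cy5 over Cy3 whichever RNA carried which dye. Most of the 10 genes were then higher in Cy5 on the G1 arrays, and less so or not at all on the S arrays. MFA2 and MFA1 stayed higher in Cy5 in S, with means of 0.61 and 0.37. AGA2 read 0.32 to 2.16 on the 8 G1 arrays (median 1.27) and -0.57 to 0.45 on the 8 S arrays (median -0.14). All 8 G1 arrays of AGA2 were above 0, against 2 of 8 S arrays. BAR1 read 0.13 to 0.99 on the G1 arrays (median 0.47) and -0.55 to -0.06 on the S arrays (median -0.24), which did not overlap. STE2 read 0.32 to 1.95 in G1 (median 0.65) and -0.55 to 0.38 in S (median -0.13).

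The a-factor genes and AGA1 shared this shift. MFA2 read 1.00 to 1.81 on the G1 arrays (median 1.33) and -0.23 to 1.17 on the S arrays (median 0.75). MFA1 read -0.07 to 3.01 in G1 (median 1.21) and -0.29 to 0.96 in S (median 0.31), and AGA1 read -0.06 to 3.04 in G1 (median 1.07) and -0.47 to 0.68 in S (median 0.11). FUS1 was above 0 on 7 of 8 G1 arrays and 4 of 8 S arrays. FAR1 and FUS3 did not show it: FAR1 was above 0 on 4 of 8 G1 arrays and 3 of 8 S arrays, and FUS3 on 3 of 8 in each phase.

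**Figure D3:**
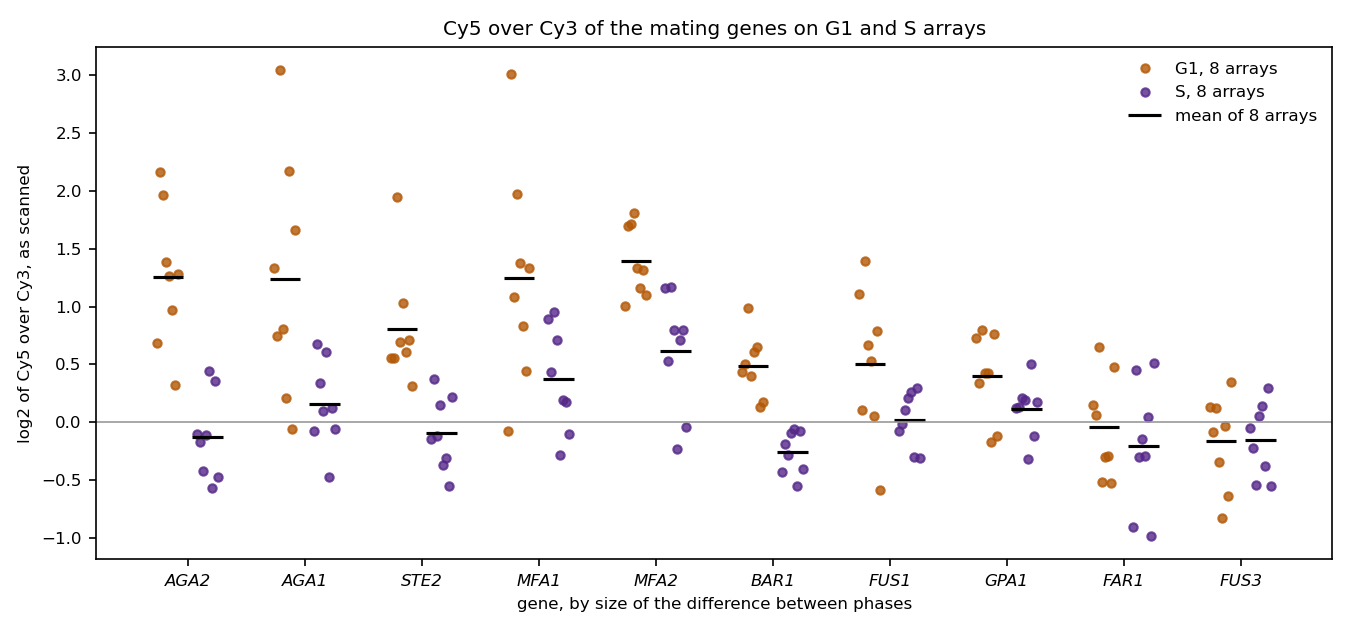
Cy5 over Cy3 of the 10 mating genes as scanned, on 8 G1 arrays (orange) and 8 S arrays (purple). The vertical axis is log2 of Cy5 over Cy3, black bars are means, and genes are ordered by the difference of the means. AGA2, AGA1, STE2, MFA1, MFA2 and BAR1 lie higher in G1 by their means, and single arrays of the phases overlap for every gene but BAR1.

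Ranked by the mean of Cy5 over Cy3 in G1 minus that in S, 6 of the 10 mating genes were among the 10 highest of 4073 genes and 7 among the 25 highest. AGA2 was 1st with a difference of 1.39 ± 0.17, AGA1 5th with 1.08 ± 0.22, STE2 7th with 0.90 ± 0.18, MFA1 8th with 0.88 ± 0.23, MFA2 9th with 0.78 ± 0.19, BAR1 10th with 0.75 ± 0.11 and FUS1 22nd with 0.49 ± 0.18. GPA1 was at rank 86 with 0.29 ± 0.10, FAR1 at 251 with 0.16 ± 0.09 and FUS3 at 2156 with -0.01 ± 0.09. The median was 0.76 over the 10 genes and 0.00 over all genes. Averaged over the 2 arrays of a comparison, the 4 G1 comparisons lay wholly above the 4 S comparisons for 6 of the 10 genes, against 1.55% of all genes. All 8 G1 arrays were above 0 for 4 of the 10 genes, against 2.53%.

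In a limma test of this difference, with 6 residual degrees of freedom, none of the 10 genes passed the adjusted threshold. Adjusted p was 0.0679 for AGA2, 0.0856 for BAR1 and 0.252 for both STE2 and AGA1. At an unadjusted p under 0.05 there were 8 of the 10 genes and 240 of all genes. The only gene of 4073 to pass was CIS3, a cell wall gene outside the lists, which shifted the other way (-0.92 ± 0.10, adjusted p = 0.0376). Within G1 alone the mean of Cy5 over Cy3 differed from 0 for 8 of the 10 genes, against 37.5% of all genes. Within S it did for 3 of the 10, against 35.7%. Over all genes the median size of the mean was alike in the phases, at 0.106 in G1 and 0.105 in S. This comparison was added after the spread of the arrays had been seen, and signal brightness, labelling and hybridisation, which the values used here do not record, were not tested.

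**Figure D4:**
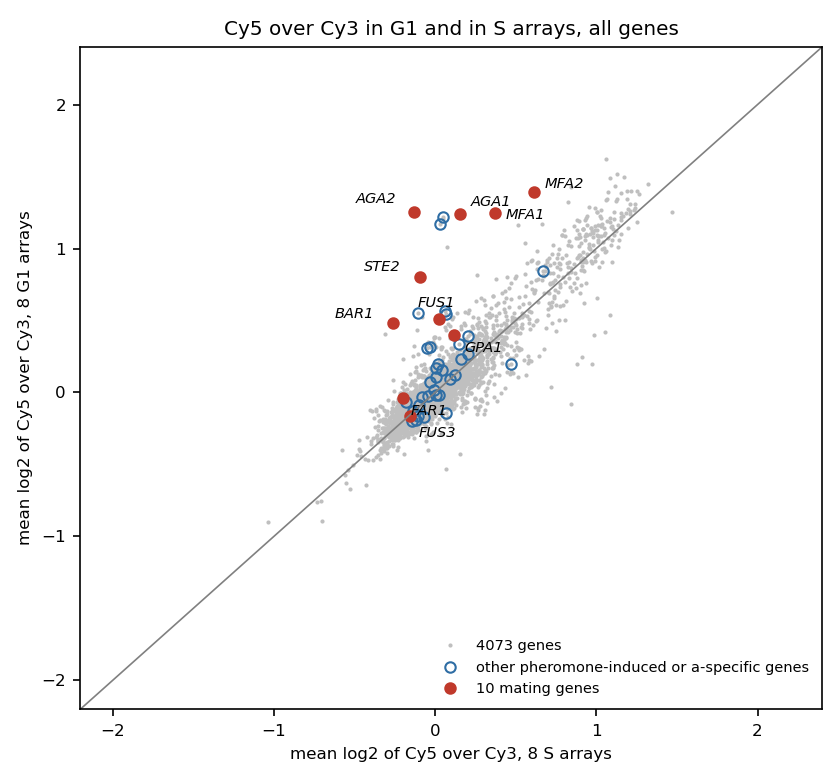
Mean log2 of Cy5 over Cy3 on the 8 S arrays (horizontal axis) and on the 8 G1 arrays (vertical axis) for 4073 genes (grey), the 10 mating genes (red) and other pheromone-induced or a-specific genes (open blue). The line marks equal means, and AGA2, AGA1, MFA1, MFA2, STE2 and BAR1 lie above it.

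Some other mating genes, named here for their rank, stood beside them. Of 64 measured genes of the 4 mating lists, the 10 genes included, 12 were among the 25 with the highest G1 minus S difference. FIG1, a membrane protein of mating cells, was 2nd at 1.17, and FIG2, a cell wall adhesin of mating cells, was 4th at 1.14. ASG7, an a-specific gene, was 12th at 0.66, PRM3, a nuclear fusion gene, 20th at 0.51, and RVS161, a gene of membrane curvature and cell fusion, 24th at 0.47. Genes outside the mating lists ranked there too, among them GPD1 3rd at 1.16 and SEC13 6th at 0.94. Not all of the 64 genes shared the shift. STE6 was at rank 744 with 0.08, and AFR1 (-0.21, rank 3976) and STE24 (-0.28, rank 4016) ran the other way. FIG1 and FIG2 were, like the members, spread wide in G1, as between the strains with MMS, where FIG1 read 2.22 and -1.31 and FIG2 read 2.73 and -1.28.

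Each phase holds 4 comparisons that form a loop, so esa1-L254P with MMS over untreated wild type can be reached by 2 paths. One path runs through treated wild type and the other through untreated esa1-L254P. Over all genes the paths correlated at 0.914 in G1 and 0.942 in S, across genes that are no independent replicates, with a median gap of 0.115 in each phase. FAR1 closed closely, with gaps of 0.04 in G1 and 0.02 in S. By either path FAR1 came to -0.83 or -0.85 in S. FUS3 had gaps of 0.03 in G1 and -0.23 in S. AGA1 closed badly in G1, at 0.26 by one path and -0.69 by the other, a gap of 0.95 that 99.7% of genes stayed under. STE2 had a gap of 0.62 in G1 (97.3% of genes stayed under it) and MFA2 of 0.76 in S (99.6%). Whether arrays shared RNA preparations is not in the labels, and its part in the gaps was not tested.

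Across the 8 comparison means, the genes with the pattern most like that of FUS1 were PRM4 and PRM2, both pheromone-regulated membrane protein genes (Pearson r = 0.94 and 0.93), then CFT2 (0.88). For FUS3 they were GPI16 (1.00), DAK2 (0.99) and MAK32 (0.99), for FAR1 COX1, YCK2 and LCB2 (0.96, 0.96 and 0.95), and for AGA1 SPS18, GIC2 and GAL4 (0.99, 0.99 and 0.98). GIC2, a Cdc42 effector of polarised growth, is on the pheromone-induced list. For STE2 the highest r was with ADE13 (0.94), for MFA1 with JAC1 (0.98), for MFA2 with FIS1 (0.92), for BAR1 with CYS4 (0.96), for AGA2 with SWE1 (0.96) and for GPA1 with SNU71 (0.95). None of the 30 likest genes was another of the 10. They were picked from all 4073 genes, so this says little about whether the members vary together. Between members the highest r was 0.81, for STE2 and FAR1, and the lowest -0.68, for FUS3 and GPA1. The 8 means share RNAs and arrays of the same dye order, and the values are descriptions of 8 points.

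The 21 other genes of pheromone signalling are given next. With MMS in wild-type G1 4 rose (18.1% of all genes) and 4 fell (17.9%). KAR4, a transcription factor of mating, rose by 0.85 ± 0.19 (arrays 0.69 and 1.01, adjusted p = 0.00696), and STE18, the G protein gamma subunit, by 0.79 ± 0.20 (adjusted p = 0.0133). DIG1, which encodes an inhibitor of Ste12, fell by 0.84 ± 0.09 (adjusted p = 0.000105), and MSG5, the phosphatase of Fus3, by 0.83 ± 0.12 (adjusted p = 0.000739). In esa1-L254P G1 2 rose (13.3%) and 3 fell (13.9%). AKR1, a palmitoyl transferase, rose by 0.84 ± 0.14 and STE11, the MAP kinase kinase kinase, by 0.64 ± 0.12, while STE12, the transcription factor, fell by 0.28 ± 0.08 (adjusted p = 0.0364).

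In wild-type S cells 3 rose (19.1% of all genes) and 4 fell (19.2%). STE11 rose by 0.78 ± 0.12 (adjusted p = 0.000627), STE12 fell by 0.66 ± 0.08 (adjusted p = 0.000269) and STE20, the kinase above STE11, fell by 0.44 ± 0.07 (adjusted p = 0.00127). In esa1-L254P 2 rose (16.3%) and 7 fell (16.8%). KAR4 rose by 0.59 ± 0.19 (adjusted p = 0.0387), MSG5 fell by 0.77 ± 0.12 (adjusted p = 0.00131) and MCM1, the partner of Ste12 and activator of a-specific genes, fell by 0.65 ± 0.07 (adjusted p = 0.000179). Wild-type S shared 2 of these, with KAR4 higher (0.67 ± 0.19, adjusted p = 0.0195, limma) and MCM1 lower (-0.38 ± 0.07, adjusted p = 0.003). DIG1 differed between the phases in wild type, from -0.84 ± 0.09 in G1 to -0.02 ± 0.09 in S (difference 0.82 ± 0.12, adjusted p = 0.00077). Between the strains in untreated cells 2 signalling genes were higher (12.1%) and 1 lower (9.31%) in G1, and 3 were higher (9.23%) and 0 lower (11.5%) in S. With MMS 0 passed in G1 (4.54% higher and 5.25% lower of all genes) or in S (0.0246% and 0.0982%).

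Of 24 other pheromone-induced mating genes, 3 rose and 2 fell with MMS in wild-type G1 (18.1% and 17.9% of all genes), and 0 rose and 3 fell in esa1-L254P G1 (13.3% and 13.9%). In wild-type S 1 rose and 3 fell (19.1% and 19.2%), and in esa1-L254P S 0 rose and 4 fell (16.3% and 16.8%). PRM7, a pheromone-regulated gene, fell in all 4. Its 8 arrays read -0.80, -0.94, -0.76 and -0.96 in G1 and -1.39, -1.47, -1.65 and -1.80 in S, all below 0 and lower in S. The fall was larger in S than in G1 by 0.56 ± 0.17 in wild type (difference -0.56, adjusted p = 0.0293) and by 0.86 ± 0.17 in esa1-L254P (difference -0.86, adjusted p = 0.0110). PRM10, another pheromone-regulated gene, also fell in all 4, by 1.31 ± 0.16 in wild-type G1 (adjusted p = 0.000272), 0.94 ± 0.16 in esa1-L254P G1, 0.66 ± 0.16 in wild-type S and 0.63 ± 0.16 in esa1-L254P S (adjusted p = 0.0146). CIK1, which encodes a partner of the motor Kar3 in nuclear fusion and in mitosis, fell in S by 0.89 ± 0.08 in wild type and 0.86 ± 0.08 in esa1-L254P. In G1 it rose by 0.34 ± 0.08 in wild type (adjusted p = 0.00627) and fell by 0.24 ± 0.08 in esa1-L254P (adjusted p = 0.0434).

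Between the strains, 1 pheromone-induced gene was higher and 2 lower in untreated G1, and 3 were higher and 0 lower in untreated S, against 12.1% and 9.31% of all genes in G1 and 9.23% and 11.5% in S. CIK1 was higher in esa1-L254P in G1 (0.53 ± 0.08, adjusted p = 0.0013), and PRM7 was lower there (-0.54 ± 0.12, adjusted p = 0.0106) and higher in S (0.47 ± 0.12, adjusted p = 0.0202). With MMS in G1 1 was higher, GIC2, at 0.84 ± 0.23 (arrays 1.16 and 0.52, adjusted p = 0.0491), and in S 0 passed.

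Of 9 genes of a-factor production and other a-specific genes, RCE1 and RAM2, which process the a-factor precursor, fell with MMS in wild-type G1, by 0.59 ± 0.17 (adjusted p = 0.0237) and 0.43 ± 0.13 (adjusted p = 0.0253). Of all genes 17.9% fell there. In wild-type S RAM2 rose by 0.46 ± 0.13 and RAM1, its partner subunit in farnesylation, by 0.51 ± 0.14 (adjusted p = 0.0165), while 19.1% of all genes rose. In esa1-L254P RCE1 fell in S by 0.73 ± 0.17 (adjusted p = 0.0099, 16.8% of all genes fell), and 0 of 9 passed in G1 (27.2%). In untreated G1 cells RCE1 and RAM2 were also lower in the mutant (-0.58 ± 0.17 and -0.42 ± 0.13), as were 9.31% of all genes.

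Filamentation shares Ste11, Ste7 and Ste12 with mating, so its genes are given for contrast. Of 8, 5 fell and 0 rose with MMS in wild-type G1 (17.9% and 18.1% of all genes), 2 fell and 2 rose in esa1-L254P G1 (13.9% and 13.3%), 2 fell and 2 rose in wild-type S (19.2% and 19.1%), and 3 fell and 1 rose in esa1-L254P S (16.8% and 16.3%). OPY2, a membrane anchor of Ste50, rose by 1.18 ± 0.21 in wild-type S, 0.92 ± 0.21 in esa1-L254P S and 0.86 ± 0.21 in esa1-L254P G1. FLO11, the flocculin of filamentous growth, rose by 0.51 ± 0.08 in wild-type S and 0.47 ± 0.08 in esa1-L254P G1. MSB2, the sensor mucin of that pathway, fell by 1.08 ± 0.06 in wild-type G1 (adjusted p = 1.31e-05), by 0.72 ± 0.06 in wild-type S and by 0.99 ± 0.06 in esa1-L254P S (adjusted p = 2e-05). In esa1-L254P G1 it read -0.22 and -0.16 and missed the threshold (adjusted p = 0.0507). TEC1, the transcription factor that pairs with Ste12 in filamentation, fell in all 4 MMS comparisons, by 0.60 ± 0.08 and 0.36 ± 0.08 in G1 and 0.64 ± 0.08 and 0.41 ± 0.08 in S, with wild type first.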

How the data were processed

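PolyA RNA was primed with oligo-dT and labelled with Cy5 and Cy3, per the labels' protocols. The values deposited by the authors are log2 ratios of both channels, 1 column an array. Log base and direction are not stated and were taken as log2 of Cy5 over Cy3. The tools were R 3.1.1 and limma 3.0, per the submitters' processing notes. How background was corrected and arrays were normalized is not given in the sources used here. No signal intensity or depth was used, so the number of arrays limits the precision.

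The table held 15744 spots, 8152 with 1 gene symbol and 7592 with none, which were left out. Read by probe number, duplicate spots correlated at -0.033 to 0.022. Of 15552 systematic orders, the one chosen scored 1.10 on the agreement of duplicate spots of 2037 genes, the next 0.0348 and the best after shuffling 0.0385. Every gene name rests on this order. Of the symbols 3940 were current in the RefSeq gene table, 125 were updated and 8 kept.

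Replicate 2 of each comparison was turned in sign, each array was centred on the median of its named genes, spots of a gene were averaged, and 1 model over 16 arrays was fitted with limma 3.58.1 in R 4.3.3 (8 residual degrees of freedom, prior 1.744). P-values were Benjamini-Hochberg adjusted over 4073 genes within each comparison, at 0.05, and the code was tested on simulated data. Same-numbered arrays deviated together from their comparison means (r from 0.62 to 0.89 over 28 pairs of comparisons), so the number pairs the arrays. It is the dye orientation in the labels, and entered as a block in an alternative fit. As scanned, the arrays of a pair correlated below 0 in 6 of 8 comparisons and above 0 between the strains with MMS (0.215 in G1, 0.612 in S).

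The members and gene lists were chosen with earlier results of these data known. All 10 members were tested in every comparison, and some are given as ranges. Genes of the other lists were named from up to 4 that passed per direction and comparison, by size, and not all of those are named. RNR3, CIS3 and the genes named for their G1 minus S rank were named after their values were seen. Likeness takes the 3 genes of highest Pearson correlation. The alternatives were the block, arrays left out, no centring, arrays scaled to one spread, single spots and robust eBayes. The block within each phase and centring on all spots were added after seeing the data.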

Additional observations from a re-analysis of the deposited data

Results flagged for a closer look

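Contrasts between phases or strains were flagged for 4 of the genes. The MMS response of FUS3 differed between S and G1 of wild type (0.91, adjusted p = 0.0269, limma). That contrast passed for 1 of the 10 genes, against 32.2% of all genes, and not with any of its 4 arrays left out. In G1 the responses of FUS3 (0.62, adjusted p = 0.0260) and FAR1 (0.57, adjusted p = 0.0274) differed between the strains. This contrast passed for 2 of the 10 genes, against 41.6% of all genes.

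In 5 further contrasts both arrays of one comparison lay above 0 and both of the other below 0, but the test of the difference did not pass. These were the phase difference of the MMS response in wild type for AGA1 (0.95, adjusted p = 0.610) and GPA1 (-0.59, adjusted p = 0.337), and the phase difference of the strain ratio for GPA1 without MMS (-0.71, adjusted p = 0.238) and FUS3 with MMS (-0.53, adjusted p = 0.413). The last was the strain difference of the MMS response in S for AGA1 (-0.44, adjusted p = 0.758). How many of all genes meet the same rule is not given here, so the 5 cannot be set against a background. In the comparisons concerned, both arrays lay on one side for 36.7% to 82.0% of all genes.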

How the results depend on the processing

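No value of a member that passed turned in sign, and robust eBayes changed no call among the 10 genes. With the replicate block, 2 of the 10 passed with MMS in wild-type G1, 1 between the strains in untreated G1 and 1 in G1 with MMS, 1 with MMS in esa1-L254P G1 and 2 in wild-type S. It gave 1 for the phase difference of the MMS response in esa1-L254P and 2 over both strains, 1 for the strain difference of the response in S, and 2 for the phase difference of the untreated strain ratio. Of all 4073 genes 1099, 1400, 1799 and 2248 passed these contrasts, in the same order. With the replicate block within each phase, 5 passed with MMS in wild-type G1, 2 between the strains in untreated G1 and 2 in G1 with MMS, 2 with MMS in esa1-L254P G1 and 2 in wild-type S, while of all 4073 genes 2287, 1767, 1155, 2063 and 2370 did. The phase difference of the MMS response then gave 2 in wild type, 2 in esa1-L254P and 4 over both, the strain difference of the response 4 in G1 and 1 in S, and the phase difference of the untreated strain ratio 3, beside 2135, 1078, 1378, 2568, 1804 and 2249 of all genes. With arrays scaled to one spread 0 passed with MMS in wild-type S and in esa1-L254P S, 0 for the phase difference in wild type and 0 for the strain difference in G1. Of all genes 962, 839, 721 and 1444 passed there. The first spot alone gave 1 with MMS in wild-type G1, 1 for the strain difference in G1 and 1 for the phase difference of the untreated strain ratio. Beside them stood 1173, 1459 and 1134 of all genes. The last spot alone gave 0 for the phase difference in wild type and 1 for the strain difference in G1, beside 1047 and 1481 of all genes. Asking for both spots gave 0 for each of these contrasts, beside 799 and 1127 of all genes. With single arrays left out, a lone array being assumed to vary like the others, 0 to 1 passed between the strains in untreated G1, 0 to 1 with MMS in wild-type S, 0 to 1 in esa1-L254P S, 0 for the phase difference in wild type, 0 to 2 for the strain difference in G1 (AGA1 then passed at 2.59 without replicate 2 of the strains in G1 with MMS), and 0 to 1 for the phase difference of the untreated strain ratio (FUS3 at 1.09 without replicate 2 of the untreated strains in G1). FAR1 in S kept its call in 8 of 10 alternatives in each strain, and FUS3 between phases in wild type in 6 of 12. Over all genes the block raised the number that passed from 1466 to 2292 with MMS in wild-type G1 and from 399 to 1203 between the strains in G1 with MMS, from 1560 to 2376 with MMS in wild-type S and from 1348 to 2268 in esa1-L254P S. Leaving out an array of the comparison lowered these to 592 to 873, 65 to 154, 728 to 803 and 682 to 821, and asking for both spots to 944, 171, 1052 and 845. The cause of these changes was not tested. The table holds ratios alone, so background correction and a filter on dim spots were not run.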
